A study of Mus musculus with 40 samples.

Results

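The liver of daughters of nicotine-exposed fathers was compared with the liver of daughters of control fathers, and the response was described across all genes with a measurable level. The comparison used 10 of the 40 samples of the series: 5 livers after paternal nicotine, numbered 1 to 5, and 5 livers after the control treatment, which the table's header calls DMSO, also numbered 1 to 5. All were female mice of the inbred strain C57BL/6J, and all samples of the series carry the same batch number. The labels give no dose, age, litter or father, so p-values measure the spread between these samples, and several may share a father. RNA was read by 3′-tag sequencing, which counts short reads near the end of each polyadenylated transcript. The table held 14781 genes, and the 9173 with a mean of 10 or more DESeq2 normalized counts over the 10 libraries were tested. A normalized count is the number of reads of a gene divided by a size factor of its library. It depends on transcript abundance and not on length in this assay, but levels are compared here within a gene and not between genes. Each log2 change is the nicotine mean minus the control mean of log2(normalized count + 1); the added 1 shrinks changes of genes with few reads. A gene was called when limma's p adjusted over all 9173 genes by Benjamini-Hochberg was under 0.05.

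The liver is built mostly of hepatocytes, which make plasma proteins, bile acids, glucose and lipoproteins and detoxify foreign compounds. Their gene expression is zoned between the portal vein and the central vein and follows the daily clock, feeding and stress hormones. Clock proteins bind E-box and D-box elements in promoters. Unfolded proteins in the endoplasmic reticulum (ER) raise chaperone genes through a composite promoter element called ERSE, and the factor HSF1 raises cytosolic chaperones through heat shock elements.

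The libraries held 1811932 to 1998332 reads in the nicotine group and 2045023 to 2152027 reads in the control group. The mitochondrial ribosomal RNA mt-Rnr2 took 12.0 to 14.2% of reads after nicotine and 14.1 to 15.6% in controls. Nicotine library 5 and control library 4 carried skeletal muscle transcripts: the summed normalized count of 13 muscle markers was 463 in nicotine library 5 and 299 in control library 4, against 10.6 to 54.1 in the other 8 libraries. The giant muscle protein gene Ttn stood at 229 in each of these libraries. Summed hepatocyte markers overlapped, at 95351 to 112910 after nicotine and 96861 to 106977 in controls.

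After DESeq2 normalization, most changes across the table were small and the calls were balanced in direction. Of the 9173 genes, 301 were called (3.28%), with 148 higher after paternal nicotine (1.61%) and 153 lower (1.67%). The median log2 change over all tested genes was -0.0045, and 5% of genes lay below -0.48 and 5% above 0.46. The size factors set the typical gene's change near 0, so the median and the balance cannot show a shift shared by most genes. Among the called genes the median size of the log2 change was 0.66, and 64 of them reached 1 or more, 28 higher and 36 lower. A further 163 called genes lay between 0.5 and 1, and 74 lay under 0.5. The 5 nicotine libraries lay wholly above or wholly below the 5 controls for 434 genes (4.73%), 206 above (2.25%) and 228 below (2.49%), of which 221 were also called. At an unadjusted p under 0.05 there were 1610 genes.

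**Figure D1:**
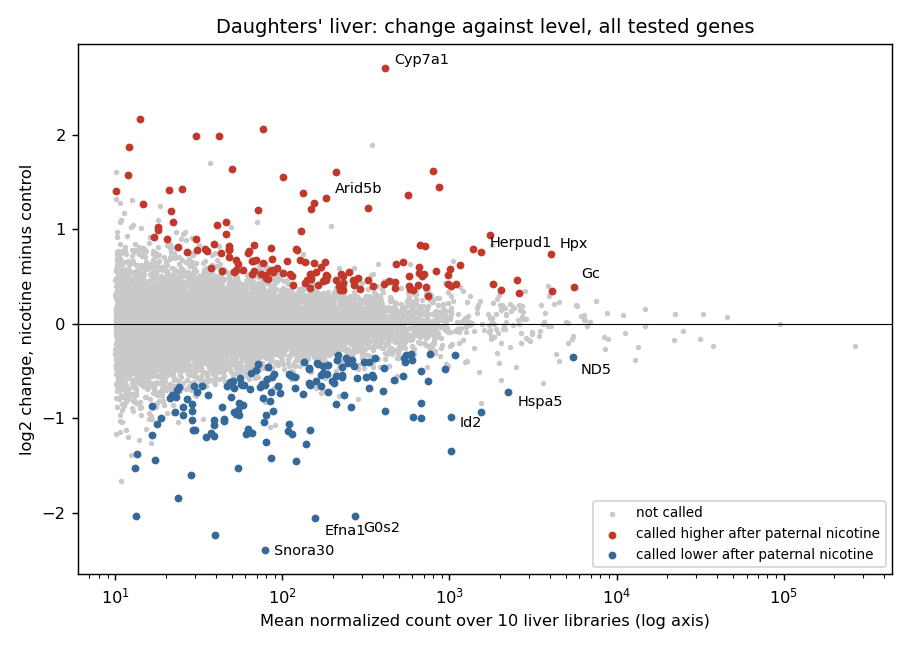
Log2 change (nicotine minus control) of the 9173 tested genes in daughters' liver against their mean normalized count over 10 libraries, on a log axis. Red points are the 148 genes called higher after paternal nicotine, blue points the 153 called lower and grey points the genes not called; the called genes narrow towards 0 as the level rises.

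The share of genes called increased with their level. It was 1.18% of the 3378 genes with a mean from 10 to 30 normalized counts, 2.95% from 30 to 100, 5.40% from 100 to 300, 8.19% from 300 to 1000, and 11.4% of the 175 genes at 1000 or more. The median standard error of the log2 change fell along the same steps, to 0.092 in the highest step against 0.26 in the lowest. Among the genes at 1000 or more, 14 were higher and 6 lower. The called genes held a small part of the liver's messages: the 148 higher genes took 3.50 to 4.04% of normalized counts in nicotine libraries and 2.31 to 2.68% in control libraries. The 153 lower genes took 1.39 to 1.55% in nicotine libraries and 2.02 to 2.41% in control libraries.

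The number of calls depended on single libraries. Leaving out 1 library gave 185 to 327 called genes, with 185 without control 5, 193 without nicotine 4 and 199 without control 1. Without nicotine 5 and control 4, the livers with muscle transcripts, 173 genes were called, and 158 of them were among the 301. All 301 genes kept their sign in each of these fits. They were selected for their difference in these same livers, so this does not test their direction. In all 10 fits that left out 1 library, 149 of the 301 were called (69 higher, 80 lower), and 127 of those were also called without both muscle-bearing livers.

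In a principal component analysis of all tested genes, the first component (21.6% of the variance) separated the groups, at 10.1 to 20.2 for nicotine livers and -17.6 to -7.42 for control livers. Control 3 lay nearest to the nicotine livers. On the second component (13.7%) the highest livers were nicotine 5, at 23.2, and control 4, at 15.5, which carried the muscle transcripts. The median SD of a gene within a group was 0.261 on the log2 scale among nicotine livers and 0.237 among controls.

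**Figure D2:**
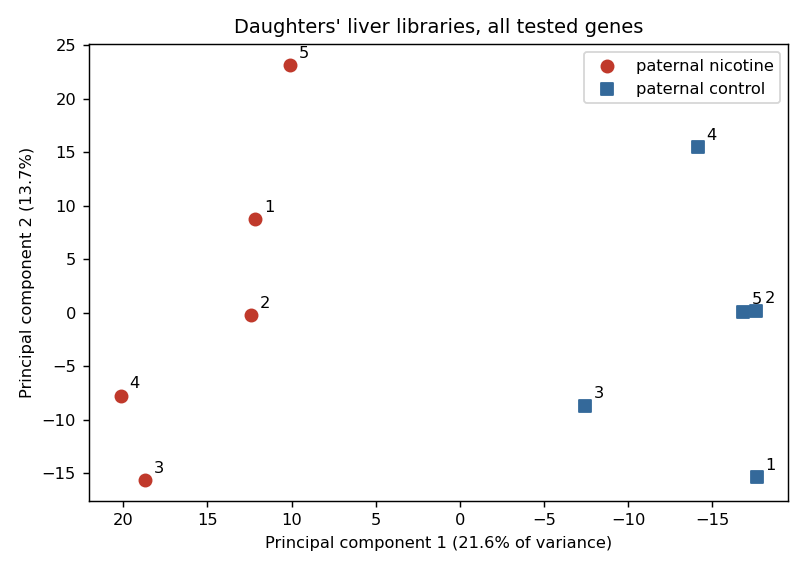
Scores of the 10 livers on the first (x axis, reversed) and second (y axis) principal components of log2(normalized count + 1), with the library number beside each point. Nicotine livers (red circles) lie between 10.1 and 20.2 on the first component and control livers (blue squares) between -17.6 and -7.42.

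Among the called genes with the smallest p-values were several regulators of hepatocyte genes. Hhex, a homeobox factor needed for liver development, lies on chromosome 19 at 37434810 to 37440731 on the plus strand (GRCm38, GENCODE M21). It had 251, 239, 198, 192 and 214 normalized counts in nicotine livers 1 to 5, against 88.4, 82.0, 72.9, 122 and 86.4 in control livers 1 to 5. Every nicotine liver was above every control, and the means were 219 ± 25.5 and 90.3 ± 18.6 (SD, n = 5 each; log2 change 1.28, SE 0.13, limma adjusted p = 1.35e-05). Arid5b, a chromatin factor linked to fat and liver metabolism (chromosome 10, 68092520 to 68278740, minus strand), had 248, 230, 229, 338 and 256 normalized counts after nicotine, against 81.6, 132, 92.1, 94.2 and 117 in controls. Its groups were also apart, with nicotine 4 highest (log2 change 1.33, SE 0.13, limma adjusted p = 1.36e-05). The co-repressor Tle1 rose to 296 ± 26.3 after nicotine, against 202 ± 21.0 in controls, and Klf13, a Krüppel-like factor, to 152 ± 15.6 against 88.2 ± 16.9. The Id proteins block helix-loop-helix factors, and of 4 tested, Id2 and Id3 fell, against 1.67% of all genes. Id2 had 695 ± 188 normalized counts after nicotine and 1343 ± 170 in controls. Hes1, a repressor induced by Notch signalling, fell to 67.9 ± 17.0, against 148 ± 24.3. The calls of these genes held in every fit that left out 1 library. The liver-enriched factor Cebpa, at 227 ± 15.2 after nicotine and 298 ± 45.6 in controls, was called in 2 of the 10 such fits (highest adjusted p 0.12, without control 1). Tle1, Hes1, Cebpa and the Id family were chosen after their values were seen.

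Genes of sterol, lipid and metal handling were among the other leading changes. Insig2, an ER protein that holds back cholesterol synthesis (chromosome 1, 121304353 to 121332589, minus strand), had 491, 391, 562, 321 and 496 normalized counts in nicotine livers, against 1008, 953, 688, 882 and 945 in controls. The groups did not overlap, and the log2 change was -0.999 (SE 0.13, limma adjusted p = 0.00016). Slc30a10, a manganese exporter of the Slc30 zinc transporter family (chromosome 1, 185454848 to 185468762, plus strand), had 34.4, 45.6, 38.7, 28.4 and 36.2 normalized counts after nicotine, against 104, 90.7, 74.8, 83.7 and 65.5 in controls. The highest nicotine liver was below the lowest control (log2 change -1.17, SE 0.15, limma adjusted p = 0.00016). Of 16 tested members of the Slc30 and Slc39 families, 3 fell and 0 rose, against 1.67% of all genes called lower and 1.61% called higher. The other 2 were the zinc exporter Slc30a1, at 143 ± 11.9 after nicotine and 206 ± 24.1 in controls, and the importer Slc39a8, at 44.4 ± 5.80 and 66.3 ± 8.04. Slc39a8 was called in 5 of the 10 fits without 1 library (highest adjusted p 0.083, without control 5), and Slc30a1 was not called without both muscle-bearing livers. These families were chosen after their values were seen.

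Angptl4, a secreted inhibitor of lipoprotein lipase (chromosome 17, 33773750 to 33781830, minus strand), had 163, 174, 172, 176 and 170 normalized counts after nicotine, against 82.5, 107, 76.7, 78.0 and 88.3 in controls. The nicotine livers were close together, all above the controls (log2 change 0.99, SE 0.11, limma adjusted p = 2.5e-05). Both tested lipins, phosphatases that make diacylglycerol, rose, against 1.61% of all genes. Lpin1 had 1039, 991, 1719, 1325 and 1166 normalized counts in nicotine livers, against 688, 758, 413, 271 and 301 in controls. Its controls formed a wide range, from 271 to 758, but stayed below every nicotine liver (limma adjusted p = 0.00091). Lpin2 averaged 740 ± 80.1 after nicotine and 556 ± 62.1 in controls, and its call was lost without nicotine 4, control 4 or control 5 (highest adjusted p 0.056). Abcg5 and Abcg8, which form the canalicular sterol exporter, rose to 175 ± 24.0 and 271 ± 35.4 after nicotine, against 120 ± 9.03 and 191 ± 28.7 in controls. They were the 2 genes called of 4 tested Abcg genes, against 1.61% of all genes called higher. Abcg8 was called in 7 of 10 fits without 1 library (highest adjusted p 0.053, without nicotine 4). Of 3 tested perilipins, which coat lipid droplets, Plin2 and Plin5 fell, against 1.67% of all genes, and Plin3 had a higher mean and was not called. Plin2 fell to 597 ± 108 after nicotine, against 900 ± 127 in controls. Plin5 was called in 8 of the 10 fits without 1 library and not without the muscle-bearing livers (limma adjusted p = 0.055). The lipin, Abcg and perilipin families were chosen after their values were seen.

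**Figure D3:**
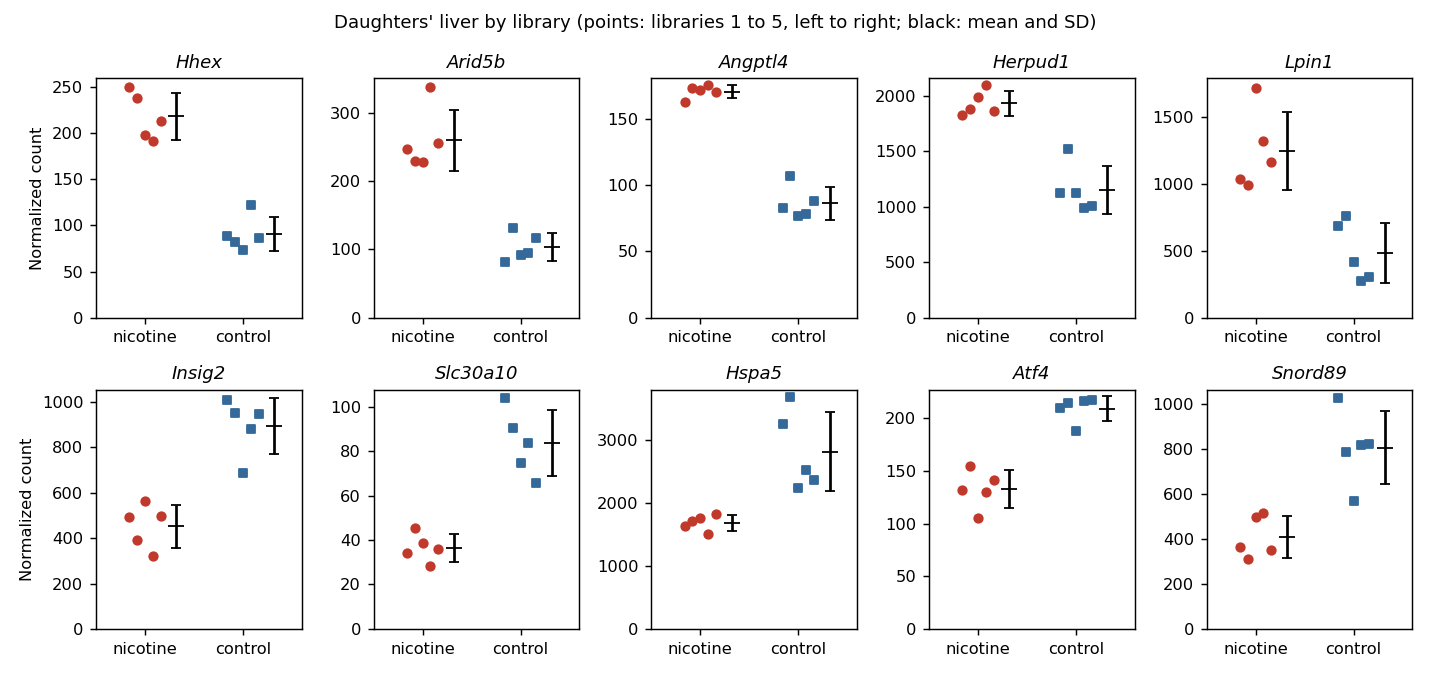
Normalized counts of 10 genes in each daughter's liver, nicotine left (red circles) and control right (blue squares), with the mean and SD in black (n = 5 each) and each y axis starting at 0. In all 10 genes the groups do not overlap; Hhex, Arid5b, Angptl4, Herpud1 and Lpin1 are higher after nicotine, and Insig2, Slc30a10, Hspa5, Atf4 and Snord89 are lower.

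The densest group of calls was a list of clock genes that peak late in the light phase. Of 14 tested members, 9 rose and 0 fell, against 1.61% of all genes called higher, and the list's median log2 change was 0.74. This list and the other gene lists were chosen with earlier results of these data known. The called members were the repressors Per2, Per3 and Ciart, the D-box binding factors Dbp, Tef and Hlf, the deubiquitinase Usp2, the phosphatase Noct and the leucine zipper protein Tsc22d3. Per3 had 102, 60.9, 74.1, 79.6 and 77.5 normalized counts after nicotine, against 42.7, 41.5, 55.6, 50.4 and 40.9 in controls, with no overlap (log2 change 0.75, limma adjusted p = 0.0063). Per2 had 66.8, 64.7, 51.6, 70.9 and 47.5 after nicotine, against 27.2, 29.9, 43.2, 46.6 and 29.1 in controls. Its groups were apart by less than 1 normalized count (limma adjusted p = 0.016), and its call was lost without nicotine 4, control 1 or control 5 (highest adjusted p 0.053). The count of 9 was 6 without any 1 of these libraries and 7 to 9 without any 1 of the others. Tef and Hlf were each called in 2 of the 10 fits without 1 library (highest adjusted p 0.12 and 0.11). The clock activator Clock, one of 5 tested members of the morning list, fell to 72.2 ± 13.3 after nicotine, against 115 ± 24.0 in controls, and was called in 5 of the 10 fits without 1 library. Nfil3, a repressor at D-boxes, was below every control in every nicotine liver, at 9.24 ± 1.21 and 17.3 ± 2.92, and was not called (limma adjusted p = 0.062).

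The promoters of Ciart and Per3, members of that group, are shown because each holds more than 1 clock element. They are RefSeq windows of GRCm38.p6 from 250 bases before to 50 bases after the annotated start, Ciart at chr3:95882179-95882478 on the minus strand and Per3 at chr4:151044616-151044915 on the minus strand. Capitals mark the E-box CACGTG in Ciart and the D-box TTANGTAA in Per3. Among the other called members with a window, Tef held 1 E-box, and Usp2, Dbp, Hlf, Noct and Tsc22d3 held neither element.
Ciart: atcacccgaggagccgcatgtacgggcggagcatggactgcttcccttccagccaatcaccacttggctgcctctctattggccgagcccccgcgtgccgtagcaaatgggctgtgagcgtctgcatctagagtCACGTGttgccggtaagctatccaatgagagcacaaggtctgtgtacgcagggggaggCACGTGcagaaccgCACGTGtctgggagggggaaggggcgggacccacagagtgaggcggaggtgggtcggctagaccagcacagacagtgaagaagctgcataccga
Per3: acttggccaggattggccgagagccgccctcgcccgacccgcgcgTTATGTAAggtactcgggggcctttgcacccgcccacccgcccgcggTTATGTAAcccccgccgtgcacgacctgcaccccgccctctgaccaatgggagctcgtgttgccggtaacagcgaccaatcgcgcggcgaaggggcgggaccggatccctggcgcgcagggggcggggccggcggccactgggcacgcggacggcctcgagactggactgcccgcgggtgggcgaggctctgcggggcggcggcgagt
Of the called genes, 112 higher and 110 lower had a promoter in the table, as did 7014 of the 9173 tested genes. Searched on both strands, the E-box stood in 8.04% of promoters of higher genes, 7.27% of those of lower genes and 10.5% of those of all tested genes. The D-box stood in 4.46% of promoters of higher genes (Coq10b, Per3, Ak4, Homer2 and Ces1c), 0.909% of those of lower genes and 1.53% of those of all tested genes. A match describes these letters and is not evidence of binding.

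Of 17 tested targets of the glucocorticoid receptor, the receptor for stress hormone, 6 rose and 1 fell, against 1.61% and 1.67% of all genes, with a median log2 change of 0.59. The 6 were Tsc22d3, the EGF receptor inhibitor Errfi1, Lpin1, Angptl4, the NF-kappaB inhibitor Nfkbia and Tat, an enzyme of tyrosine breakdown. Errfi1 had 1293, 1072, 1299, 1289 and 953 normalized counts after nicotine, against 383, 821, 309, 364 and 227 in controls, where control 2 was far above the other controls. Nfkbia averaged 795 ± 101 after nicotine and 522 ± 44.4 in controls. Tat, at 918 ± 293 and 506 ± 113, lost its call without nicotine 4 or control 5 (highest adjusted p 0.06). The member that fell was Dusp1, a phosphatase that is also an immediate early gene, called in 4 of the 10 fits without 1 library. Fkbp5 and Sgk1, textbook targets of the receptor, averaged 111 ± 11.1 and 80.1 ± 13.7 after nicotine, against 83.8 ± 36.9 and 56.4 ± 10.9 in controls, and were not called (limma adjusted p = 0.21 and 0.090).

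Most chaperone genes of the ER did not pass the test, and the called ones were mainly lower. Of 35 tested ER folding genes, 4 fell (Hspa5, Pdia6, Hyou1 and Creld2), against 1.67% of all genes, and Herpud1 rose, and 27 of the 35 had a lower mean after nicotine and 8 a higher one (49.3% of all tested genes had a higher mean). Hspa5, the main ER chaperone, had 1627, 1703, 1759, 1498 and 1819 normalized counts in nicotine livers, against 3252, 3681, 2239, 2515 and 2355 in controls. The groups did not overlap, and controls 1 and 2 were highest (log2 change -0.72, SE 0.12, limma adjusted p = 0.0013). Creld2, a secretory pathway protein induced by ER stress, had 13.8, 17.1, 17.2, 17.4 and 20.7 after nicotine, against 59.2, 63.7, 29.7, 25.7 and 29.1 in controls, again with controls 1 and 2 highest. Herpud1, which serves the removal of misfolded ER proteins, went the other way, with 1825, 1880, 1988, 2100 and 1868 normalized counts after nicotine against 1124, 1521, 1127, 986 and 1005 in controls (log2 change 0.76, SE 0.10, limma adjusted p = 0.00016). The count of 4 fell to 2 without nicotine 1, 3 or 4 or control 1 or 2. Pdia6 was called in 4 and Hyou1 in 3 of the 10 fits without 1 library.

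Of 44 genes of ER entry and COPII export, Sec23b and Sec24d, which coat vesicles leaving the ER, fell, against 1.67% of all genes, and 0 rose. At an unadjusted p under 0.05 the list had 4 higher and 5 lower genes. Sec23b was called in 7 of the 10 fits without 1 library (highest adjusted p 0.059, without control 2). Sec24d averaged 182 ± 9.50 after nicotine and 273 ± 50.7 in controls. Surf4, a cargo receptor of the same route outside that list, fell to 468 ± 24.5, against 604 ± 64.1, and was called in 5 of the 10 fits without 1 library. Among 12 tested genes of the ATF4 stress response, Atf4 itself, Atf5 and the stress hormone Gdf15 fell and Cebpb rose, against 1.67% and 1.61% of all genes. The median log2 change of these 12 was -0.07, and 7 had a lower mean after nicotine and 5 a higher one. Atf4 had 132, 155, 105, 130 and 142 normalized counts in nicotine livers, against 210, 214, 188, 216 and 217 in controls, with no overlap (log2 change -0.66, limma adjusted p = 0.0012). Gdf15 was called in 3 of the 10 fits without 1 library (highest adjusted p 0.13, without control 5).

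Of 21 tested cytosolic heat shock genes, Hsph1, Chordc1, Dnaja1 and Hspa4l fell, against 1.67% of all genes, and 0 rose. A lower mean after nicotine was seen in 18 of the 21, against 50.7% of all tested genes. Chordc1, an HSP90 co-chaperone, had 84.5, 85.6, 99.9, 92.7 and 86.8 normalized counts after nicotine, against 162, 122, 113, 131 and 124 in controls, with no overlap. Hsph1, a nucleotide exchange factor for HSP70, averaged 55.9 ± 11.3 and 97.6 ± 21.2. Without the livers with muscle transcripts 1 of the 4 was called (Hspa4l), and without nicotine 2 or control 1 the count was 2. Hsp90aa1 and Hspa8, the abundant HSP90 and HSP70 forms, averaged 258 ± 46.0 and 262 ± 47.1 after nicotine, against 355 ± 55.1 and 334 ± 34.6 in controls, and were not called.

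Promoters of 3 chaperone genes that fell are shown because each holds a match to the ERSE or to the heat shock element. A match is not evidence of binding. The windows are from the same RefSeq table: Hspa5 at chr2:34771840-34772139 and Creld2 at chr15:88819396-88819695 on the plus strand, with the ERSE in capitals, and Chordc1 at chr9:18292017-18292316 on the plus strand, with overlapping heat shock elements in capitals.
Hspa5: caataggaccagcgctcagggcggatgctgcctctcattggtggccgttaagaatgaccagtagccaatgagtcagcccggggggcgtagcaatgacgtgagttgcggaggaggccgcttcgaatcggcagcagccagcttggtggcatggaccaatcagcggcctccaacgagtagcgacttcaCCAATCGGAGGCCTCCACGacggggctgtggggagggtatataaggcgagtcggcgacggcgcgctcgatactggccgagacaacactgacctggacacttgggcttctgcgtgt
Creld2: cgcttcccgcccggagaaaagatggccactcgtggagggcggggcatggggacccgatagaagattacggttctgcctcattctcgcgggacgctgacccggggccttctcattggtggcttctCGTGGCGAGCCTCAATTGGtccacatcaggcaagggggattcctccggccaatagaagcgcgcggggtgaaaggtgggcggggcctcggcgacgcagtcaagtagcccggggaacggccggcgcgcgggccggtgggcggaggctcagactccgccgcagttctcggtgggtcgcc
Chordc1: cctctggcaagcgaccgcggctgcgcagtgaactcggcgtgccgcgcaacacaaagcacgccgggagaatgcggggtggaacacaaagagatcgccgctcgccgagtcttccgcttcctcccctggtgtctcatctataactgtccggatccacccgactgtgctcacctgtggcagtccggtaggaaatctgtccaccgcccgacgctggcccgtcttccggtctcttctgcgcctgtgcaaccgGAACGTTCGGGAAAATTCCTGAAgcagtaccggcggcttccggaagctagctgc
The ERSE was searched as CCAAT, any 9 bases and CCACG on both strands, and Creld2 holds it on the strand opposite to the one printed. It stood in 3 promoters of lower genes (Hspa5, Creld2 and Pdia6; 2.73%), 0 of higher genes and 14 of all 7014 (0.200%). The heat shock element was searched as GAA, any 2 bases, TTC, any 2 bases and GAA on both strands. It stood in 3 promoters of lower genes (2.73%: Hsph1, Chordc1 and Slc39a8), 0 of higher genes and 30 of all 7014 (0.428%). The windows of Dnaja1 and Hspa4l, which also fell, held no heat shock element, and that of Herpud1, which rose, held no ERSE.

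Immediate early genes, which are switched on within minutes of a stimulus, gave 4 lower members of 19 tested (Nr4a1, Junb, Btg2 and Dusp1) and 0 higher, against 1.67% and 1.61% of all genes, with a median log2 change of -0.50. Nr4a1, an orphan nuclear receptor, had 2.95, 4.75, 8.59, 2.18 and 5.17 normalized counts after nicotine, against 22.3, 29.9, 21.1, 26.6 and 10.0 in controls. The groups did not overlap, but 2 nicotine values lie at or under the level of 3 reads. Egr1, the best known member, averaged 135 ± 140 after nicotine and 208 ± 171 in controls and was not called (limma adjusted p = 0.44). Bbc3, which encodes the p53-induced cell death protein PUMA, fell to 47.9 ± 20.7, against 123 ± 24.6. Of 13 tested p53 targets 2 fell, against 1.67% of all genes, and 0 rose. The other was Btg2, already counted among the immediate early genes.

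Hepatocyte zonation genes were uneven. Of 29 tested genes of the pericentral zone, around the central vein, 6 rose and 1 fell, against 1.61% and 1.67% of all genes, and 25 had a higher mean after nicotine, against 49.3% of all tested genes. The 6 were Cyp7a1, the first enzyme of bile acid synthesis, the P450 genes Cyp1a2, Cyp2c37 and Cyp2c50, the secreted factor Lect2 and the carboxylesterase Ces1d. Lect2 had 248, 241, 317, 258 and 268 normalized counts after nicotine, against 189, 189, 201, 171 and 168 in controls, with no overlap (log2 change 0.53, limma adjusted p = 0.0033). The defining pericentral enzymes Glul and Cyp2e1 averaged 2900 ± 341 and 3194 ± 474 after nicotine, against 2522 ± 133 and 2500 ± 377 in controls, and were not called (limma adjusted p = 0.25 and 0.0845). Among 29 tested periportal genes, Tat rose, and G6pc1, the last enzyme of glucose release, and the adhesion protein Cdh1 fell, against 1.61% and 1.67% of all genes. A higher mean after nicotine was seen in 17 of these 29. Leaving out 1 library moved the periportal calls between 0 and 3 higher and between 1 and 3 lower. Within the Cyp2c family, whose near-identical members can share reads, Cyp2c40 fell while Cyp2c37 and Cyp2c50 rose. Cyp2c40, at 964 ± 112 and 1200 ± 50.3, was called in 1 of the 10 fits without 1 library, and Cyp2c50 in 3.

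Targets of PPARalpha, the receptor that drives fatty acid oxidation, had lower means in 24 of 27 tested, against 50.7% of all tested genes. By the test 2 fell, Plin2 and the fatty acid hydroxylase Cyp4a10, and Angptl4 rose, against 1.67% and 1.61% of all genes. Cyp4a10 was called in 4 of the 10 fits without 1 library (highest adjusted p 0.085, without control 5) and not by DESeq2 (adjusted p = 0.090). Leaving out single libraries moved the count of lower targets between 1 and 6, with 6 without nicotine 1 or control 3 and 4 without nicotine 5. Acot1, an acyl-CoA thioesterase, had 96.3, 32.3, 39.7, 29.4 and 75.4 normalized counts after nicotine, against 114, 130, 48.9, 177 and 98.3 in controls. Its groups overlapped and it was not called (limma adjusted p = 0.062).

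Of 45 tested plasma proteins 4 rose and 0 fell, against 1.61% and 1.67% of all genes, and the list's median log2 change was 0.07. Without the muscle-bearing livers 2 were called higher. Hpx, the haem carrier hemopexin, had 4912, 4174, 3767, 7192 and 5471 normalized counts after nicotine, against 3282, 3341, 2591, 2896 and 2799 in controls, with nicotine 4 highest and no overlap. Gc, the vitamin D binding protein, had 6356, 5819, 6431, 6365 and 6492 after nicotine, against 4599, 4833, 5241, 4877 and 4537 in controls (log2 change 0.39, limma adjusted p = 0.0070), and was not called without the muscle-bearing livers. The others were Hrg, histidine-rich glycoprotein, and Ces1c, a plasma esterase called in 2 of the 10 fits without 1 library. Albumin (Alb) averaged 47292 ± 5640 after nicotine and 44711 ± 2215 in controls and was not called (limma adjusted p = 0.78). B2m, the light chain of class I histocompatibility molecules, rose to 4610 ± 320, against 3628 ± 287, a call lost without nicotine 4 or control 1, 2 or 5 (highest adjusted p 0.076).

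**Figure D4:**
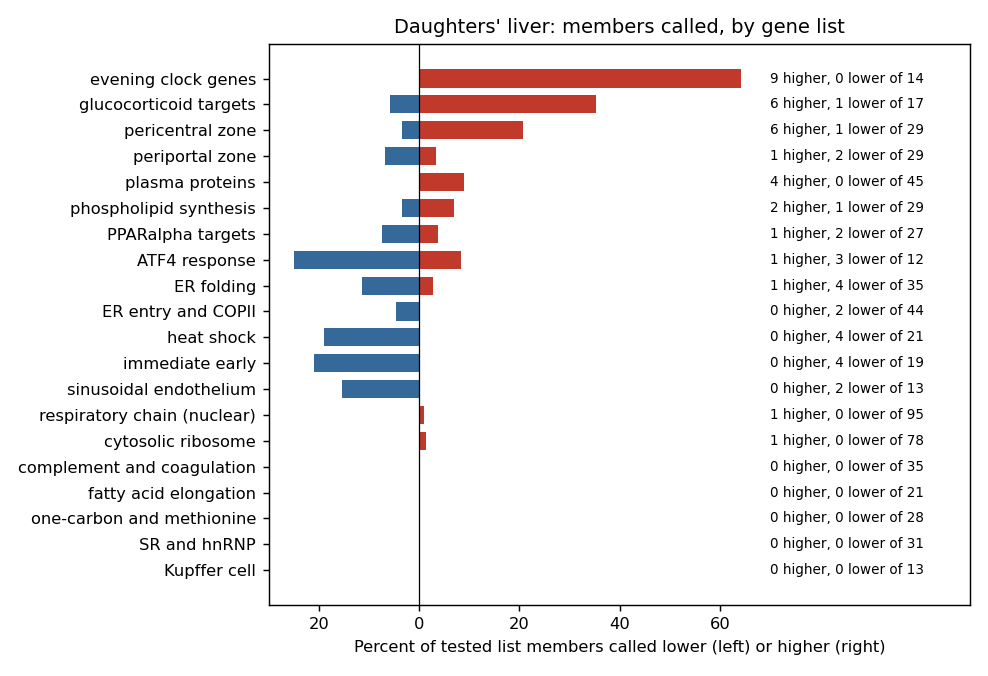
Percent of the tested members of 20 gene lists that were called higher (red, right) or lower (blue, left) after paternal nicotine in daughters' liver, with the counts at the right margin. The evening clock list has 9 of 14 members higher; the chaperone, immediate early and endothelial lists have called members mainly on the lower side, and the last 5 lists have 0.

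Large housekeeping sets showed few calls. Of 78 cytosolic ribosomal protein genes, 1 (Rpl17) rose (1.28%), and of 95 nuclear respiratory chain genes, 1 (Atp5f1d) rose (1.05%), against 1.61% of all genes. In each of 5 lists, complement and coagulation (35 tested), fatty acid elongation (21), one-carbon metabolism (28), SR and hnRNP splicing factors (31) and Kupffer cell markers (13), 0 genes were called by limma. At an unadjusted p under 0.05 they held 8, 6, 9, 9 and 1 genes in that order, and edgeR and DESeq2 called genes in complement and coagulation (2 and 4), while DESeq2 also called 2 in fatty acid elongation. Among 10 mitochondrially encoded transcripts ND3 rose and ND5 fell, against 1.61% and 1.67% of all genes. They were called in 3 and 6 of the 10 fits without 1 library. The list of nicotinic acetylcholine receptors and related genes had 2 tested members of 23, Chrna4 and the esterase Bche. Neither was called by limma, edgeR or DESeq2, and 1 passed at an unadjusted p under 0.05. Of 52 enzymes that write or erase DNA and histone marks, 1 fell (1.92%), near the 1.67% of all genes called lower, and 0 rose. The gene was the histone demethylase Kdm4a, at 65.4 ± 17.9 after nicotine and 106 ± 21.6 in controls. Its call held in 6 of the 10 fits without 1 library. Among 22 imprinted genes 1 rose and 1 fell (9.09% called, against 3.28% of all genes). Gnas, a G protein subunit, rose to 330 ± 33.5, against 236 ± 24.5. Peg3, a zinc finger gene, fell to 24.7 ± 6.55, against 53.4 ± 17.6.

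Small nucleolar RNAs guide the modification of ribosomal RNA and mostly lack poly(A) tails. They had the highest share of calls of any annotated gene class with more than 2 tested genes: 6 of 11 were called (54.5%), all lower, against 3.16% of protein-coding genes. Snord89 had 366, 309, 496, 516 and 350 normalized counts after nicotine, against 1026, 785, 570, 819 and 822 in controls, with no overlap (log2 change -0.98, limma adjusted p = 0.00055). Without the muscle-bearing livers 3 of the 6 kept their calls, and the class was chosen after its values were seen. Snora30 had 27.5, 6.66, 56.9, 17.4 and 26.9 after nicotine, against 155, 128, 77.7, 217 and 73.7 in controls. Strand use is not stated and most lie in introns of other genes, so their reads cannot be told apart from those of their hosts. Among the autosomes and the X chromosome, the called share of matched genes ranged from 1.32% on chromosome 14 to 4.87% on chromosome 12, with 4 of 259 genes on the X chromosome (1.54%).

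Genes of the sinusoidal endothelium, the lining of the liver's capillaries, gave 2 calls. Of 13 tested marker genes, Lyve1, a hyaluronan receptor, and Fcgr2b, which clears immune complexes, fell, against 1.67% of all genes, and 0 rose. Lower means after nicotine were seen in 11 of the 13, against 50.7% of all tested genes. The summed level of the list was 857 to 1025 normalized counts after nicotine and 1102 to 1212 in controls, with no overlap. Lyve1 had 23.6, 25.7, 11.8, 18.5 and 19.6 after nicotine, against 40.8, 37.6, 42.2, 39.0 and 28.2 in controls. The defining markers Stab2 and Kdr were below every control in every nicotine liver, at 57.03 ± 2.91 and 377 ± 41.2, against 74.4 ± 5.65 and 469 ± 15.1 in controls, without passing (limma adjusted p = 0.0845 and 0.052). Stab1 and Pecam1 averaged 22.5 ± 4.44 and 36.4 ± 9.60 after nicotine, against 23.4 ± 2.96 and 41.0 ± 4.82 in controls. Outside the list, and chosen after their values were seen, F8 (clotting factor VIII, made by liver endothelium), Clec14a and Adgrl4 fell, to 120 ± 10.6, 18.2 ± 3.55 and 23.1 ± 1.84, against 167 ± 15.3, 41.6 ± 12.6 and 38.6 ± 2.48. Gpihbp1, the endothelial anchor of lipoprotein lipase, rose to 79.6 ± 7.20, against 46.3 ± 5.19. Without the muscle-bearing livers, 0 of the 13 listed markers were called by limma, and 6 were lower at an unadjusted p under 0.05. In bulk tissue, fewer cells of a type and less RNA per cell cannot be told apart. The summed Kupffer cell markers (726 to 1188 after nicotine, 687 to 1036 in controls), stellate cell markers (1190 to 1674 and 1456 to 1651) and adipocyte markers (173 to 730 and 169 to 323) overlapped between the groups.

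Only 75 of the 301 called genes belonged to any of the 47 lists. The remaining 226, 108 higher and 118 lower, included many enzymes and regulators named here after their values were seen. Upp2, a uridine phosphorylase of liver, rose to 2308 ± 393 after nicotine, against 1198 ± 184 in controls. The carbonic anhydrase Car3 rose to 1739 ± 102, against 1032 ± 286, the glutamine transporter Slc38a3 to 829 ± 104, against 573 ± 47.7, and the sorbitol dehydrogenase Sord to 2077 ± 273, against 1548 ± 129. Nampt, the rate-limiting enzyme of NAD salvage, rose to 205 ± 30.4, against 134 ± 11.7, and Prkaa2, a catalytic subunit of the energy sensor AMPK, to 306 ± 21.9, against 222 ± 31.8. Akr1c19, an aldo-keto reductase, had 140, 120, 149, 202 and 144 normalized counts after nicotine, against 62.1, 46.3, 71.0, 35.2 and 43.7 in controls.

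Lower genes outside the lists included several kinases and signalling proteins. Ypel2, a small zinc-binding protein, had 26.5, 32.3, 33.3, 19.6 and 26.9 normalized counts after nicotine, against 88.4, 74.3, 67.1, 90.3 and 83.7 in controls, a 2.91-fold difference with no overlap. Sgk2, a kinase related to SGK1, had 154, 197, 207, 171 and 168 after nicotine, against 387, 269, 367, 294 and 345 in controls. Tnfaip2, a gene induced by TNF, had 58.0, 81.8, 78.4, 46.9 and 88.8 after nicotine, against 164, 131, 156, 165 and 163 in controls. The kinase Pim1 fell to 39.0 ± 7.09, against 85.5 ± 17.2, the sphingosine kinase Sphk2 to 53.9 ± 10.3, against 105 ± 11.9, and the interferon regulatory factor Irf1 to 113 ± 13.9, against 178 ± 26.6. Tubulins, the subunits of microtubules, gave 2 lower genes of 8 tested, against 1.67% of all genes, in a family chosen after its values were seen. Tubb2a had 38.3, 50.4, 48.3, 48.0 and 46.5 normalized counts after nicotine, against 104, 122, 74.8, 127 and 142 in controls, and may share reads with the near-identical Tubb2b. These unlisted genes, higher and lower, were each called in all 10 fits that left out 1 library.

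Small changes passed the test where the livers of a group were close. Ggnbp2, a zinc finger protein, had 445, 497, 502, 529 and 476 normalized counts after nicotine, against 656, 610, 620, 605 and 574 in controls (log2 change -0.32, limma adjusted p = 0.025). The kinesin gene Kif21a averaged 190 ± 9.91 after nicotine and 239 ± 11.0 in controls, and the selenium enzyme Sephs2 822 ± 73.1 and 666 ± 38.6. Kif21a was called in 2 and Sephs2 in 3 of the 10 fits without 1 library. Larger mean differences did not pass where livers of a group differed. The sulfotransferase Sult2a1 had 298, 716, 706, 389 and 279 normalized counts after nicotine, against 313, 17.4, 548, 58.0 and 125 in controls, a log2 change of 1.89 with an adjusted p of 0.091 by limma. The adipokine Cfd, at 62.9, 128, 14.0, 12.0 and 67.1 after nicotine and 4.86, 48.2, 4.80, 15.2 and 10.0 in controls, likewise overlapped (limma adjusted p = 0.12).

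The daughters' genes were then set beside the sons' liver, 5 livers after paternal nicotine and 5 controls, in a separately normalized table, so changes and not levels are compared. The sons' nicotine livers 1 and 5 stood apart from the other sons: Cyp2c50 had 91.2 and 69.6 normalized counts in them, against 931 to 1157 in the other sons' nicotine livers and 892 to 1064 in their controls. Of the 301 genes called in daughters, 292 were tested in sons: 134 had a mean difference of the same sign and 158 of the opposite sign. Genes higher in daughters had a median log2 change of 0.59 in daughters and -0.06 in sons, and genes lower in daughters -0.68 and 0.02. In sons 5 of 9093 genes were called (0.055%), and Cyp7a1 was called in both sexes with opposite signs. The difference itself, daughters' change minus sons' change, was called by limma for 136 of 8699 genes (1.56%), 75 positive and 61 negative. Of these, 61 were among the daughters' 301 and 73 were called in neither sex, and 129 had opposite mean signs. Without the sons' nicotine 1 and 5, 115 genes were called, and 76 of the 136 were among them.

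Cyp7a1 led, with log2 changes of 2.71 in daughters and -1.67 in sons (difference 4.38, SE 0.40, limma adjusted p = 1e-06). Il6ra, the interleukin-6 receptor, had 65.9, 50.4, 66.6, 51.3 and 42.4 normalized counts in nicotine daughters, against 28.2, 26.0, 22.1, 23.8 and 30.0 in control daughters. In sons it had 19.1, 25.9, 20.9, 25.6 and 14.7 after nicotine, against 37.6, 36.9, 42.5, 34.2 and 38.1 in controls. In neither sex did the groups overlap, and the directions were opposite (difference 1.87, SE 0.23, limma adjusted p = 0.00018). Hspa5 changed by -0.72 in daughters and 0.55 in sons on the log2 scale (difference -1.27, limma adjusted p = 0.0057), and Hsph1 by -0.78 and 0.91 (difference -1.69, limma adjusted p = 0.0031). Of the 14 evening clock genes 6 were called for this difference, and of the 35 ER folding genes 5. Hhex and Arid5b, at 0.34 and 0.33 in sons, were not (limma adjusted p = 0.19 and 0.20), nor were Gc and Hpx. In sons' nicotine livers 1 to 5 Hhex had 184, 472, 539, 552 and 223 normalized counts, against 217 to 385 in their controls. Arid5b had 153, 362, 469, 384 and 149 there, against 165 to 326. For both genes the sons' nicotine livers 1 and 5, which stood apart, were the lowest of their group. The count of 136 dropped to 68 without the daughters' nicotine 4, to 75 without their control 1 and to 86 without control 5. It was 89 without nicotine 1 and 90 without control 2. All 136 kept their sign in these fits, which does not test direction, since they were selected in the same livers.

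**Figure D5:**
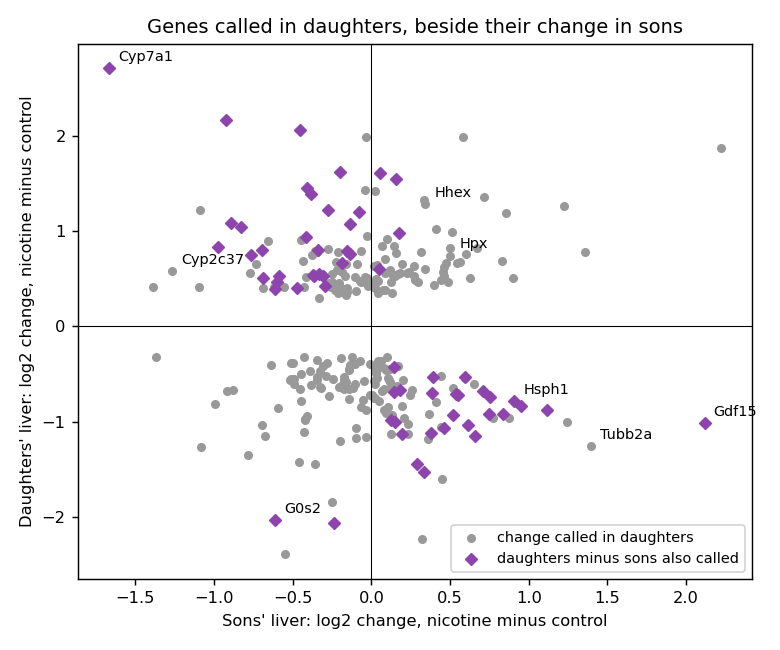
Log2 change (nicotine minus control) in daughters' liver (y axis) against that in sons' liver (x axis) for the 292 genes called in daughters and tested in sons. Purple diamonds mark the genes whose daughters minus sons difference was also called; most of them lie in the quadrants with opposite signs, such as Cyp7a1 at 2.71 and -1.67.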

How the data were processed

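Liver RNA of 10 daughters was measured by 3′-tag sequencing of polyadenylated RNA, per the labels' protocols. Tools named in the submitters' processing notes are cutadapt, STAR and DESeq2, with the genome mm10; how reads were counted, and whether by strand, was not stated in the sources used here. The deposited values are a signal, normalized counts, which the authors made by dividing gene counts by DESeq2 size factors. Whole reads were recovered from them (100% of values whole within 0.1 reads; 1811932 to 2152027 per library). Genes with a mean of 10 or more were tested with limma 3.58.1 (R 4.3.3) on log2(normalized count + 1) with a mean trend, and edgeR 4.0.16 and DESeq2 1.42.0 on recovered reads were alternatives that called 300 and 337 genes. The authors' deposited log2 fold changes and p-values, per the file headers, were not used for any result. Sons' livers entered an interaction contrast over 20 libraries, after the same filter in each table.

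The members, the 47 gene lists and the rule for named genes were chosen with earlier results of these data known. The rule took, among called genes, the 8 higher and 8 lower of smallest p, the 6 of highest level and the 5 of smallest change each way, up to 4 per list, the 5 of smallest interaction p, and 5 uncalled genes of large change; other genes and families that the text names, among them Abcg5, Abcg8, Cyp2c37 and Cyp2c50, were chosen after their values were seen, and some genes that the rule names are left out of this text. Gene positions came from GENCODE M21 by symbol (8718 of 9173 matched) and promoters from RefSeq. The labels do not say whether replicate numbers pair the livers. Correlations of same-numbered deviations ran from -0.086 to 0.070, which cannot exclude a shared litter or father. The fit was tested on simulated data. No molecular identifiers are mentioned, so reads are not taken as independent molecules.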

Additional observations from a re-analysis of the deposited data

Results flagged for a closer look

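In 21 of the 244 groups of 5 livers examined (8.61%; chance flags about 1 in 20), 1 liver stood far from the other 4. Among genes higher after nicotine, nicotine 4 was high in Arid5b (338 normalized counts, others 229 to 256) and Dbp (256, others 186 to 203), and nicotine 2 was low in Gc (5819, others 6356 to 6492). Control 2 was high in Herpud1 (1521, others 986 to 1127) and Errfi1 (821, others 227 to 383) and low in Gsta3 (1468, others 1815 to 1956). Control 3 was high in Cyp1a2 (672, others 409 to 474) and Sult2a2 (84.4, others 7.72 to 25.2).

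Among genes lower after nicotine, nicotine 5 was high in Chka (52.7, others 28.4 to 33.4) and Surf4 (510, others 446 to 463), and nicotine 2 was low in Sec24d (165, others 184 to 189). Control 2 was low in Tnfaip2 (131, others 156 to 165) and high in Kdm4a (145, others 93.2 to 100.01). Control 3 was low in Atf4 (188, others 210 to 217), and control 1 was high in ND5 (6972, others 5795 to 6125). Among genes not called, control 2 was high in Cfd (48.2, others 4.80 to 15.2), and Ttn was high in nicotine 5 (229, others 4.30 to 24.6) and in control 4 (229, others 0 to 1.94). Summed hepatocyte markers were high in control 2 (106977, others 96861 to 97450). Summed skeletal muscle markers were high in nicotine 5 (463, others 10.7 to 54.1) and in control 4 (299, others 10.6 to 14.4).

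For 30 named genes the change in daughters differed from that in sons by limma's interaction contrast, with an adjusted p under 0.05. In several of them the sons' nicotine livers 1 and 5 stood apart from their other nicotine livers. Cyp1a2 had 241 and 242 normalized counts there (others 855 to 1071), Lpin1 560 and 679 (1494 to 2241) and Gdf15 72.8 and 115 (13.5 to 32.0). Without these 2 livers 76 of all 136 calls remained, and which of the 30 did is not given here. Positive differences, in log2 units, were 4.38 for Cyp7a1, 0.81 for Angptl4, 1.39 for Akr1c19, 1.77 for Tsc22d3, 2.51 for Usp2, 1.50 for Dbp and 0.90 for Herpud1. The other positive ones were 1.82 for Errfi1, 1.81 for Cyp1a2, 1.86 for Lpin1, 1.87 for Il6ra, 0.95 for Klf13, 1.50 for Cep85l, 0.84 for Abcg5 and 1.19 for Abcg8. Negative differences were -1.42 for G0s2, -1.85 for Ypel2, -1.82 for Efna1, -1.15 for Insig2, -1.10 for Id2, -1.76 for Nedd4l and -1.25 for Tuba1c. The other negative ones were -0.84 for Atf4, -1.27 for Hspa5, -1.78 for Btg2, -1.69 for Hsph1, -0.92 for Chordc1, -0.83 for Plin5, -1.66 for Lyve1 and -3.13 for Gdf15.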

How the results depend on the processing

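Calls by limma in daughters' liver (301; 148 higher, 153 lower) were 300 to 306 with a pseudocount of 0.5 or 5, without the filter or with quantile normalization, 285 with a mean of 50 or more, 320 with library weights, 300 with edgeR and 337 with DESeq2. Leaving out 1 library gave 185 to 327 genes, 82 to 170 higher and 100 to 157 lower: 193 (84 higher) without nicotine 4, 199 (100 lower) without control 1 and 185 (82 higher) without control 5. Without nicotine 5 and control 4 there were 173 (86 higher, 87 lower). With the replicate number as a block there were 341, and 272 of the 301 were among them. Whether the numbers pair the livers is not stated in the labels. Daughters minus sons calls (136) were 136 and 138 with the other pseudocounts, 122 with a mean of 50 or more, 144 with quantile normalization, 95 with the replicate block, 115 without the sons' nicotine 1 and 5, which stood apart (76 of the 136 among them), and 68 to 132 without 1 daughter's library (89 and 68 without nicotine 1 and 4, 75, 90 and 86 without control 1, 2 and 5). The cause of these shifts was not tested. Of 104 named called genes, 55 kept their call in all 20 settings that gave one, and none of the 104 changed sign. The signs are not tested by these settings, since the genes were selected in the same livers. At 1811932 to 2152027 reads per library, changes of genes near 10 normalized counts rest on few reads.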
